A study of Rattus norvegicus with 30 samples.

Results

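Satellite glia are the flattened cells that wrap each sensory neuron in a dorsal root ganglion. They are recognised by a small set of transcripts, and 8 of these were followed here, namely Kcnj10, Glul, Fabp7, Slc1a3, Gja1, S100b, Cdh19 and Ednrb. A gene was taken as a member if its symbol stood in the gene name column of the array files, which gave 8 of 35287 gene names and 10 of 41012 probes: 1 each for 6 of the genes and 2 each for Glul and Slc1a3. For these 2 genes the probe with the higher mean signal was used throughout, and the other is given beside it where they disagreed. Adult male Sprague-Dawley rats had a segment of the left sciatic nerve resected, and the dorsal root ganglia at lumbar levels 4 to 6 (DRG) and the proximal sciatic nerve (SN) were taken at 0, 1, 4, 7 and 14 d. All rats were of this one strain and sex, and the 0 d groups were the uninjured controls of the later days. Each of the 10 groups of tissue and day was measured on 3 one-colour Agilent arrays, 30 in all. It is not stated whether an array held RNA of 1 animal or of several, so the p-values below measure the spread between arrays.

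Satellite glia buffer the potassium that neurons release, take up glutamate and turn it into glutamine, and couple to one another through gap junctions. They descend from the neural crest, as Schwann cells do, and several of their marker genes are also active in Schwann cells and fibroblasts of peripheral nerve. After damage to a peripheral axon the satellite glia around its cell body are known to express the filament protein GFAP and to couple more strongly, while Schwann cells in the nerve lose their myelin programme and divide. A whole ganglion or nerve segment was measured here, and a change in the number of cells of a type and a change in RNA per cell cannot be told apart.

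Each member was read by a probe of 60 bases. The Kcnj10 probe lies at chr13:88370316-88370375 on the plus strand of the rn4 rat genome build that the array files use. The Ednrb probe lies at chr15:87893634-87893693 and the Cdh19 probe at chr13:18227642-18230162, both on the minus strand. The Cdh19 probe spans 2521 bases of genome although it has 60 bases, so it joins sequence from separate exons. These 3 are shown because they read the genes with the late rises and the early fall in the nerve. They are written 5′ to 3′ in the sense of the mRNA with no base marked, and each has 1 reading frame free of stop codons.
Kcnj10 probe: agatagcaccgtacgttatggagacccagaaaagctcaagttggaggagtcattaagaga
Ednrb probe: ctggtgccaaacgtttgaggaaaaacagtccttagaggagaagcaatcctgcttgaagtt
Cdh19 probe: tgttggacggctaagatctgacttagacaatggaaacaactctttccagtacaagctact
The Fabp7 probe lies at chr20:36815975-36816034 and the Gja1 probe at chr20:35422026-35422085, both on the plus strand. The S100b probe lies at chr20:12791899-12791958 on the minus strand, and the Slc1a3 probes at chr2:58270419-58270478 and chr2:58270881-58270940 on the same strand. The files place no Glul probe on the genome. The Gja1, S100b and Ednrb probes were printed 10 times on each array and their spots were averaged.

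Values below are normalized signals, the log2 processed signal of a probe minus the 75th percentile of its array, so that 0 is the level of that percentile. Signals of different probes are not comparable with each other. A probe was called higher or lower in a comparison where the limma adjusted p was below 0.05 and the difference was above 2-fold. Between 26914 and 35541 probes per array were well above background, the lowest numbers being those of uninjured DRG replicates 2 and 3. The label of the tissues was borne out by marker genes, since 10 of 10 sensory neuron markers were called lower in uninjured SN than in uninjured DRG and 7 of 8 myelinating Schwann cell markers were called higher. Uninjured SN replicate 1 stood apart in its muscle RNA: the mean signal of 4 skeletal muscle genes (Acta1, Ckm, Myl1, Tnnt3) was 7.25 there and 2.90 and 3.42 on the other 2 arrays. The counts of called members in SN on every day were the same without this array. All 0 d arrays were scanned in a session of their own, so within a tissue the scan and the step from 0 d to any later day cannot be told apart.

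The 8 genes did not share 1 pattern across the tissues. In uninjured rats Fabp7 and Kcnj10 were called lower in SN than in DRG and Slc1a3 was called higher, that is 3 of 8 members against 35.4% of all probes tested. In the injured SN 3 members were called at each of the 4 days, against 22.1%, 22.7%, 24.9% and 19.8% of all probes at 1, 4, 7 and 14 d. Fabp7 rose at 1, 4 and 7 d, Gja1 at 1 and 4 d, and Kcnj10 and Ednrb at 7 and 14 d. Cdh19 fell at 1 and 4 d and S100b at 14 d. In DRG no member was called at any day, against 7.60%, 6.55%, 6.91% and 13.5% of all probes at 1, 4, 7 and 14 d.

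**Figure D1:**
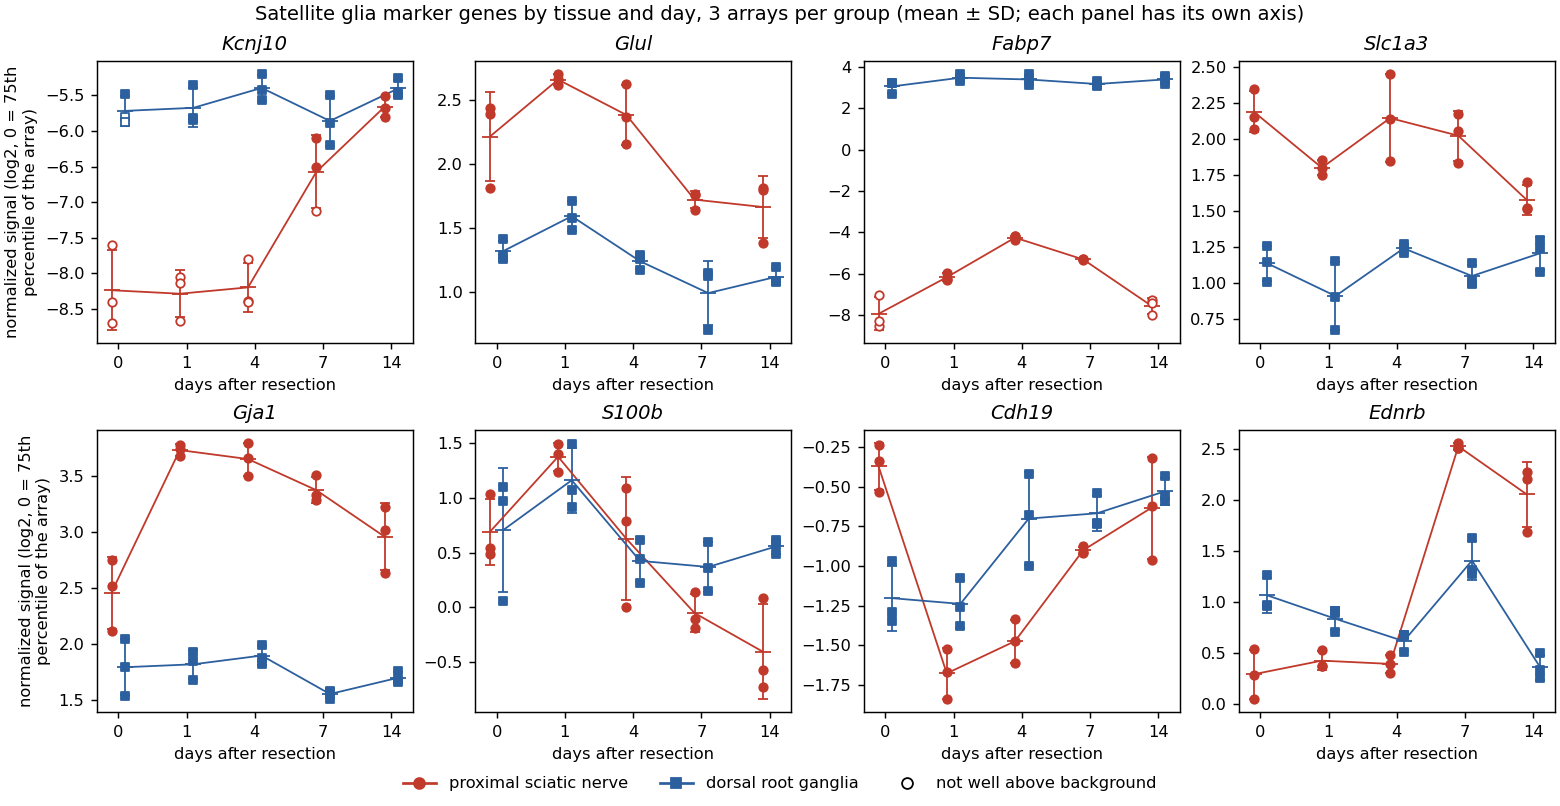
Normalized signal (log2, y axis) of the 8 genes at 0, 1, 4, 7 and 14 d (x axis, not to scale) in SN (red circles) and DRG (blue squares). Points are single arrays, lines and bars are the mean and SD of 3, and open points are not well above background. Fabp7 lay far lower in SN than in DRG on every day, the SN lines of Kcnj10 and Ednrb were high at 7 and 14 d, and most DRG lines were flat.

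Kcnj10, the inward rectifier channel Kir4.1 through which satellite glia take up potassium, was not well above background on any SN array at 0, 1 or 4 d. Its normalized signals in uninjured SN were -8.70, -8.41 and -7.61. They were -7.12, -6.50 and -6.10 on the arrays of 7 d, and -5.80, -5.51 and -5.67 on those of 14 d. The arrays of 7 d and of 14 d all lay above those of 0 d, and 2 of 3 arrays at 7 d and 3 of 3 at 14 d were well above background. The rise was called at 7 d (adjusted p = 0.000543) and at 14 d (adjusted p = 2.58e-05). The probe entered the SN test only through the 14 d arrays, where it was highest, so these p-values are not independent of that selection. With no filter on dim probes both calls were the same. The uninjured SN arrays were not well above background, so the later means were set against a floor. The floor is the lowest signal of any probe that still counted as well above background on those arrays. In these normalized signals the 14 d mean lay 1.67-fold above the floor. The 7 d mean lay below it, so no fold can be given there. A probe that is not well above background can lie above the floor, so such folds are not strict lower limits. With normexp background correction the log2 changes were 0.18 at 7 d and 0.42 at 14 d, both below 2-fold. In DRG the means stayed between -5.86 (7 d) and -5.39 (4 d). At 0 d only 1 of the 3 DRG arrays, replicate 1, was well above background, and the other 2 were the arrays with the fewest detected probes. By 14 d the SN mean of -5.66 ± 0.14 (SD, n = 3) was near the DRG mean of -5.40 ± 0.12. Within the slide that held arrays of both tissues, SN minus DRG was -0.27 at 14 d on the log2 scale. At 0 d no SN array and only 1 of 3 DRG arrays was well above background, so no fold can be given between the tissues.

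Of 11 other inward rectifier channel genes tested in SN, 2, 1, 1 and 1 were called higher at 1, 4, 7 and 14 d, and 4, 3, 2 and 1 were called lower. In DRG none of 11 was called at any day. Kcnj16, whose product pairs with Kir4.1 in one channel, was called higher in SN at all 4 days, with a mean of -7.58 before injury, when no array was well above background, and means of -5.42, -5.72, -6.41 and -6.45 on the later days in order. It was thus highest at 1 d, when Kcnj10 was still below background. The Kcnj16 means at 7 and 14 d did not exceed the floor of the uninjured SN arrays (mean -6.404), so no fold can be given at those days. Kcnj11, a subunit of ATP-sensitive channels of muscle and pancreatic islets, fell in SN by 1.65, 2.78 and 1.98 and Kcnj13 by 1.51, 2.51 and 2.12 on the log2 scale at 1, 4 and 7 d.

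Slc1a3 encodes the glutamate transporter GLAST, and Glul encodes glutamine synthetase, which makes glutamine from the glutamate taken up. Neither was called at any day in either tissue. The Slc1a3 signals in uninjured rats were 2.35, 2.15 and 2.07 in SN and 1.26, 1.15 and 1.01 in DRG. The SN arrays all lay above the DRG arrays, by a mean of 1.05 ± 0.13 (SE) on the log2 scale (adjusted p = 1.3e-07), which was just above 2-fold. The second Slc1a3 probe gave 0.88 and within the shared slide the difference was 0.93, both below 2-fold, as were the values without uninjured DRG replicate 3 (0.99) or uninjured SN replicate 1 (0.97). Quantile normalization (0.97), the authors' deposited values (0.98) and a percentile over probes well above background (0.98) also gave less than 2-fold. In SN Slc1a3 was lowest at 14 d, with signals of 1.52, 1.51 and 1.70, a fall of 0.61 from 0 d (95% interval -0.92 to -0.31, adjusted p = 0.00288). The second probe fell by 0.65 at that day.

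The Glul signals in uninjured SN were 2.44, 1.81 and 2.39. They were 2.61, 2.66 and 2.70 on the arrays of 1 d, and 1.79, 1.81 and 1.38 on those of 14 d. The arrays of 1 d lay above and those of 14 d below the arrays of 0 d, by 0.45 (adjusted p = 0.0387) and -0.55 (adjusted p = 0.0162), less than 2-fold in each case. The highest array of 14 d (1.813) and the lowest of 0 d (1.814) almost met. The second Glul probe gave a difference of 0.93 at 1 d (adjusted p = 0.000276) and of -0.20 at 14 d (adjusted p = 0.285), so the probes disagreed in size. In DRG the Glul means ran from 1.59 at 1 d to 0.99 at 7 d, and the differences from 0 d of 0.27 and -0.33 did not pass the adjusted test.

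Of 12 other genes of glutamate and glutamine handling tested in SN, 4, 2, 2 and 1 were called higher at 1, 4, 7 and 14 d, and 0, 1, 2 and 2 lower. In DRG 1 of 13 was called, at 1 d only. Slc1a1, a glutamate transporter of neurons, rose in SN by 1.75, 1.71 and 1.54 on the log2 scale at 1, 4 and 7 d. Slc38a1, which carries glutamine into cells, fell by 1.72, 1.95 and 2.54 at 4, 7 and 14 d. The call in DRG was Slc38a3, another glutamine carrier, which was higher by 1.55 at 1 d, with 1 of 3 arrays at 0 d well above background.

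Fabp7, the fatty acid binding protein of radial and satellite glia, separated the tissues more than any other member. Its signals in uninjured rats were 2.69, 3.22 and 3.22 in DRG, against -8.51, -8.25 and -7.01 in SN, where no array was well above background. The DRG mean lay 698-fold above the floor of the uninjured SN arrays (limma adjusted p = 1.8e-20 for the measured signals). After resection the arrays of 1 d gave -5.94, -6.26 and -6.28 in SN, those of 4 d gave -4.36, -4.19 and -4.19, and those of 7 d gave -5.29, -5.27 and -5.35. All 9 arrays were well above background and lay above the arrays of 0 d. In these normalized signals the means lay 1.18-fold, 4.45-fold and 2.15-fold above that floor at 1, 4 and 7 d, which are not strict lower limits. The limma adjusted p for the measured signals was 0.000361, 1.07e-06 and 1.55e-05 in turn. Fabp7 passed the filter for the SN test only through these days, the days of the rise. With no filter on dim probes the calls were the same. At 14 d the signals of -7.97, -7.26 and -7.39 were again not well above background. The call at 1 d fell below 2-fold with quantile normalization (log2 change 0.86), with the deposited values of the authors (0.72) and with normexp background correction (0.18), and under normexp the changes at 4 and 7 d were 0.91 and 0.41. Even at 4 d, its highest level in SN, the difference of SN minus DRG was -7.62 on the log2 scale. In DRG its means lay between 3.04 at 0 d and 3.46 at 1 d, and the difference of 0.42 did not pass the adjusted test (95% interval 0.04 to 0.80, adjusted p = 0.123).

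S100b, a calcium-binding protein of satellite and Schwann cells, was the member whose arrays scattered most in uninjured DRG, with signals of 0.05, 0.97 and 1.10 there and of 0.49, 0.54 and 1.04 in SN. The tissues overlapped and the difference was -0.02 (95% interval -0.57 to 0.53). In SN the signals were 1.41, 1.49 and 1.24 at 1 d and -0.73, 0.08 and -0.58 at 14 d. The arrays of 14 d lay below those of 0 d, and the fall of 1.10 was called (adjusted p = 0.00452). It fell below 2-fold without uninjured replicate 3 (-0.92) or without 14 d replicate 1 (-0.93). By the independent t test that the methods name, at its unadjusted threshold of p below 0.05 and 2-fold, the fall was called. When that t test was adjusted over all tested probes the adjusted p was 0.0624, and the fall was not called. At 1 d the difference was 0.69 and at 7 d -0.74, each below 2-fold. In DRG the means were 0.71, 1.16, 0.42, 0.37 and 0.56 at 0, 1, 4, 7 and 14 d, with no step that passed the adjusted test.

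Among 12 other fatty acid binding and S100 genes tested in SN, 3 were called higher at 1 d, 2 lower at 4 d and at 7 d, and 2 higher and 2 lower at 14 d. S100a8 and S100a9, the calprotectin subunits of neutrophils and monocytes, were higher in SN at 1 d by 5.26 and 4.51 on the log2 scale. S100a1 fell in SN by 1.44, 1.61 and 1.45 at 4, 7 and 14 d. In DRG 1 of 13 was called at 14 d, which was S100a8 with 1.21 (adjusted p = 0.0266).

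Gja1, the gap junction protein connexin 43, rose early in SN. Its signals there were 2.52, 2.74 and 2.11 before injury. The arrays of 1 d gave 3.67, 3.74 and 3.77, those of 4 d gave 3.50, 3.66 and 3.79, and those of 7 d gave 3.33, 3.50 and 3.28. Every array of these days lay above the arrays of 0 d. The change was 1.27 ± 0.17 (SE) on the log2 scale at 1 d (adjusted p = 4.81e-05) and 1.19 at 4 d (adjusted p = 6.67e-05), then 0.91 at 7 d and 0.50 at 14 d, when the arrays overlapped those of 0 d. The 7 d change was above 2-fold with quantile normalization (1.04), with the authors' deposited values (1.05) and without uninjured replicate 2 (1.06). In DRG the arrays of Gja1 spanned 1.51 to 2.04 over all days, and no later day passed the adjusted test against 0 d.

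Of 12 other connexin and pannexin genes in SN, 2, 1, 0 and 2 were called higher at 1, 4, 7 and 14 d, and 0, 1, 2 and 2 lower. Gjd2, the connexin 36 of neurons, was below background on all SN arrays at 0 d and had a mean of -6.03 at 1 d, when it was called higher. Gjb1, the connexin 32 of myelinating Schwann cells, fell in SN by 1.83, 1.95 and 1.91 at 4, 7 and 14 d.

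Cdh19, a cadherin that marks the Schwann cell and satellite glia lineage, was the member that fell early in SN. Its signals there were -0.53, -0.34 and -0.24 before injury. The arrays of 1 d gave -1.67, -1.52 and -1.84, and those of 4 d gave -1.34, -1.48 and -1.61. All 6 later arrays lay below those of 0 d, by -1.31 ± 0.15 (SE) at 1 d (adjusted p = 1.5e-05) and -1.10 at 4 d (adjusted p = 4.08e-05). The difference was -0.53 at 7 d (adjusted p = 0.00745), and by 14 d it was -0.26 (95% interval -0.58 to 0.06, adjusted p = 0.145). In DRG Cdh19 moved the other way by less than 2-fold. Its signals there were -0.97, -1.35 and -1.29 at 0 d, and -0.56, -0.43 and -0.59 at 14 d. The DRG differences were 0.50, 0.54 and 0.67 at 4, 7 and 14 d (adjusted p = 0.0229, 0.0205 and 0.00374).

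Of the 12 other classical cadherins with a probe, 8 were tested in SN. There 1, 1, 3 and 2 were called higher at 1, 4, 7 and 14 d, and 3, 2, 1 and 1 lower. Cdh3, or P-cadherin, rose by 1.67, 1.29, 1.38 and 1.05 at 1, 4, 7 and 14 d. Cdh2, or N-cadherin, rose by 1.47 at 7 d. Cdh1, or E-cadherin, which joins the membrane folds of one myelinating Schwann cell, fell by 1.37, 1.73 and 1.55 at 4, 7 and 14 d. In DRG none of the 12 was called at any day.

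Ednrb, the endothelin B receptor, rose late in SN and in a single step. Its signals in SN were 0.28, 0.53 and 0.05 before injury and still 0.39, 0.30 and 0.48 at 4 d. The arrays of 7 d gave 2.50, 2.56 and 2.50, and those of 14 d gave 2.20, 2.27 and 1.68. The arrays of 7 and 14 d lay above all arrays of 0, 1 and 4 d. The change from 0 d was 2.23 ± 0.15 (SE) on the log2 scale at 7 d (adjusted p = 2.22e-07) and 1.76 at 14 d (adjusted p = 2e-06). In DRG the signals were 1.26, 0.97 and 0.96 before injury, while the arrays of 7 d gave 1.62, 1.31 and 1.27 and those of 14 d gave 0.25, 0.49 and 0.32. Ednrb was thus highest at 7 d and lowest at 14 d in DRG, and the arrays of these days did not overlap. Against 0 d the DRG differences were -0.45 at 4 d (adjusted p = 0.0151), 0.34 at 7 d (adjusted p = 0.0563) and -0.71 at 14 d (adjusted p = 0.000832), all below 2-fold.

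Of the 6 other genes of the endothelin system, the ligands Edn1, Edn2 and Edn3, the receptor Ednra and the converting enzymes Ece1 and Ece2, only Edn2 and Ece2 were called in SN, both at 1 d. Edn2 was higher by 1.80 (1 of 3 arrays at 0 d well above background) and Ece2 was lower by 1.11. None was called in DRG or at a later day in SN, so no ligand was called at the days when Ednrb was high.

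**Figure D2:**
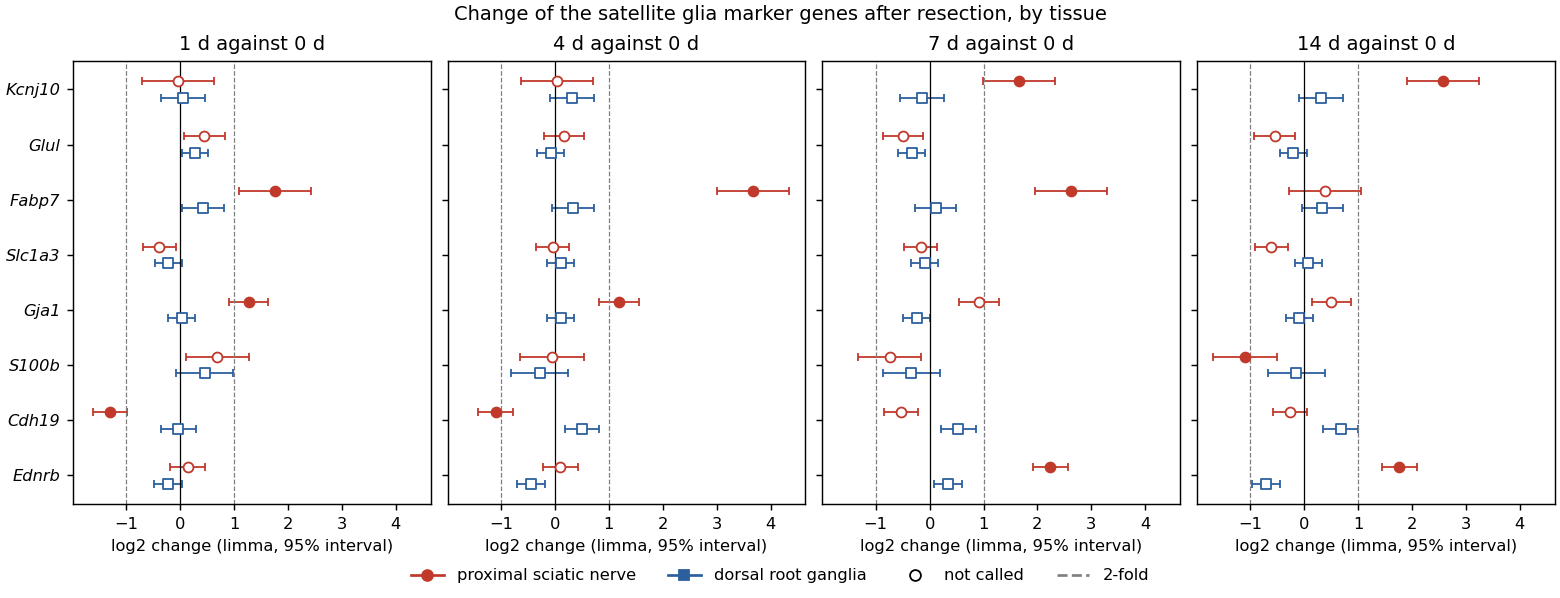
Log2 change of each gene against 0 d (x axis, limma estimate with its 95% interval) at 1, 4, 7 and 14 d in SN (red circles) and DRG (blue squares). Filled points are called and dashed lines mark 2-fold. There are 12 filled points in SN and none in DRG, where all 32 intervals lie inside the dashed lines.

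The absence of calls in DRG was measured with some precision. Over the 8 genes and 4 days the changes in DRG ran from -0.71 to 0.67 on the log2 scale, and all 32 of the 95% intervals lay within 2-fold of 0 d, the widest bounds being -0.97 and 0.99. The Kcnj10 intervals rest on a 0 d group with 1 of 3 arrays well above background. They limit its measured signal and do not show that its expression stayed within 2-fold. Among all probes tested in DRG, 7.60%, 6.55%, 6.91% and 13.5% were called at 1, 4, 7 and 14 d. By limma the members with an unadjusted p under 0.05 were 2, 2, 3 and 2 of 8 at these days, and those with an adjusted p under 0.05 were 0, 2, 1 and 2, all Cdh19 or Ednrb, against 18.1%, 31.3%, 23.8% and 38.5% of all probes. The methods' t-test, with its threshold of p below 0.05 and 2-fold, also called none. Small shifts may be missed with 3 arrays a group, and none of the other 6 genes can be said to have held its level exactly.

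The change in SN was next set against the change in DRG of the same day, in 1 fit over all 30 arrays. Called there were 3, 3, 5 and 2 of the 8 members at 1, 4, 7 and 14 d, against 11.4%, 18.2%, 15.3% and 12.5% of all probes. Ednrb moved higher in SN than in DRG by 1.89 on the log2 scale at 7 d and by 2.47 at 14 d (adjusted p = 7.24e-08 and 2.26e-09). Kcnj10 did so by 1.81 and 2.27 at the same days. Gja1 exceeded its DRG change by 1.24, 1.08 and 1.15 at 1, 4 and 7 d, and Fabp7 by 1.35, 3.34 and 2.51. Cdh19 fell short of its DRG change by -1.27, -1.60 and -1.06 at these days. With normexp background correction the Fabp7 differences at 1, 4 and 7 d were -0.34, 0.68 and 0.32. Those of Kcnj10 at 7 and 14 d were then 0.27 and 0.49, and that of Cdh19 at 7 d was -0.92, all below 2-fold. The slide as a fixed block rests at each day on the 1 slide that held both tissues. That leaves 1 DRG array at 0, 1 and 7 d and 1 SN array at 4 and 14 d, so only effect sizes are given. In that fit the Fabp7 difference at 1 d was 0.83. The same difference was 0.43 with quantile normalization (adjusted p = 0.422) and 0.28 with the authors' deposited values (adjusted p = 0.567). With the slide block the differences of Cdh19 at 1 and 7 d were -0.90 and -0.76. Those of S100b were then -1.06 at 4 d, -1.29 at 7 d and -1.77 at 14 d. Without the block the S100b differences were 0.22, -0.40 and -0.95 and were not called. The DRG array of that slide at 0 d, replicate 1, had an S100b signal of 0.05, against 0.97 and 1.10 on the other DRG arrays. With the slide as a random block the S100b difference at 14 d was -1.09 (adjusted p = 0.0389) and was called. Without uninjured SN replicate 3 the Gja1 differences at 4 and 7 d were 0.91 and 0.98 and that of Cdh19 at 7 d was just under 2-fold. Without uninjured DRG replicate 1 the Gja1 difference at 4 d was 0.96, and without uninjured DRG replicate 2 that of Cdh19 at 7 d was -0.99.

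**Figure D3:**
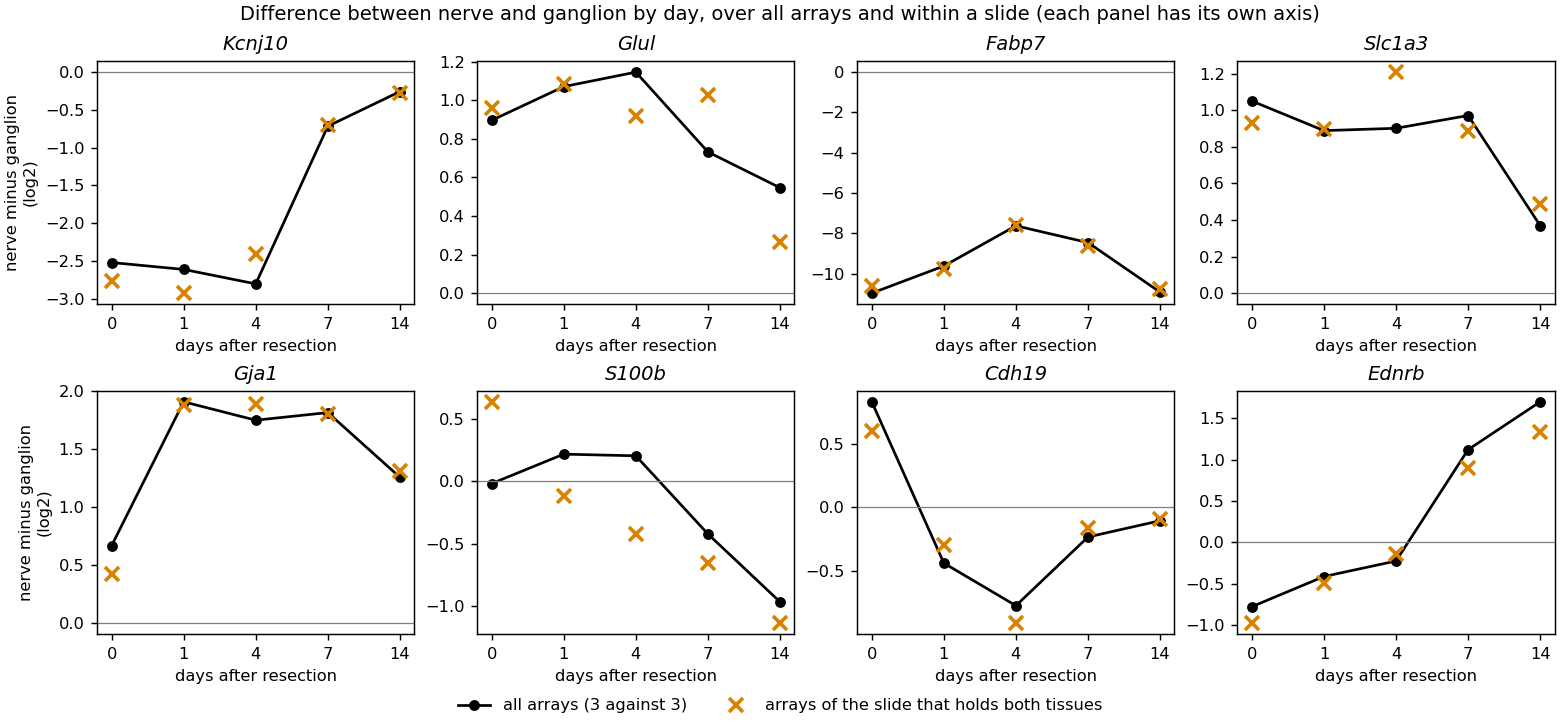
Difference of the mean normalized signals, SN minus DRG (log2, y axis), by day (x axis), over all arrays (black) and over the arrays of the slide that held both tissues (orange crosses, 1 slide a day). Ednrb and Cdh19 crossed 0 in opposite directions. Points for Kcnj10 at 0, 1 and 4 d and for Fabp7 at 0 and 14 d rest on SN arrays not well above background, so their distance from 0 is not a measured difference of expression. The 2 values were farthest apart for S100b at 0 d, with -0.02 over all arrays and 0.63 within the slide.

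Measured against their label, the 8 genes did not all lie higher in the ganglion. At 0 d Fabp7, Kcnj10 and Ednrb were lower in SN than in DRG, the last by 0.77, which is below 2-fold. Slc1a3 (1.05), Glul (0.90), Cdh19 (0.83) and Gja1 (0.67) were higher in SN, and S100b did not separate the tissues. An adjusted p below 0.05 was thus reached by 7 of 8 members, as by 70.4% of all probes. SN holds axons but not the cell bodies that satellite glia wrap, and which cells of the nerve carried these transcripts was not measured. Over the 8 genes the median difference of SN minus DRG was 0.32, beside 0.19 over all probes tested. The mean signal over the 8 genes went the other way, with 0.27 in DRG and -1.09 in SN. That mean takes in the Fabp7 and Kcnj10 signals of SN, which were not well above background. Neither value was tested. Among the 16 profiles of gene and tissue, 2 had their highest mean at 0 d, namely Slc1a3 and Cdh19 in SN. For Slc1a3 the arrays of 0 d overlapped those of 4 d, and the second probe was highest at 4 d (0.42 against 0.21 at 0 d).

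Other glial genes were examined in the same way. Gfap rose in SN by 2.51, 2.06 and 1.41 at 1, 4 and 7 d, and it was called in DRG too, with 1.71 at 1 d (adjusted p = 0.00574) and 1.32 at 14 d (adjusted p = 0.0114). Of 12 such genes in DRG, Gfap was the single call at 1 d, Gfap and Foxd3 were called at 14 d, and none was called at 4 or 7 d. In SN 1, 2, 4 and 3 of them were called higher at 1, 4, 7 and 14 d, and 3, 2, 2 and 1 lower. Sox2, a transcription factor of immature glia, rose by 1.20, 1.39 and 1.21 at 4, 7 and 14 d, and P2rx7, an ATP-gated channel, by 1.37 and 1.46 at 7 and 14 d.

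Markers of other cells moved in SN at the same time as the members. Of 8 macrophage genes 7, 8, 7 and 6 were called higher at 1, 4, 7 and 14 d, and their mean signal per array went from 0.11 to 0.30 at 0 d to 2.05 to 2.40 at 4 d. Of 4 genes of dividing cells 3, 4, 4 and 4 were called higher, and their mean signal went from -0.25 to 0.37 at 0 d to 2.65 to 2.85 at 4 d. Of 8 myelinating Schwann cell genes 2, 6, 6 and 5 were called lower, from 5.47 to 5.59 at 0 d to 3.84 to 4.14 at 7 d. Of 5 genes of injury-activated Schwann cells 2, 3, 3 and 3 were called higher and 1 lower at each day, Ngfr by 3.54 at 4 d among them. The 4 muscle genes were called lower at 4 and 7 d, with array means of -1.08 to 1.10 at 4 d. None of 6 fibroblast genes was called, and their medians lay between -0.73 and -0.52. Of 6 endothelial genes 1 was called lower at each day, and of 2 adipocyte genes 1 was called lower at 4 and at 14 d. Of 10 neuronal genes 2 were called higher at each day, and 1, 3, 3 and 6 lower. In DRG 0, 3, 5 and 4 of the 8 macrophage genes were called higher at 1, 4, 7 and 14 d, and 0, 2, 1 and 3 of the 5 genes of injury-activated Schwann cells. There 2 of the 4 dividing cell genes, Top2a and Cdk1, were called lower at 1 d, and 1 myelinating Schwann cell gene at 7 d. None of the 10 neuronal genes was called in DRG. The part of these cells in the changes of the 8 genes was not tested.

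**Figure D4:**
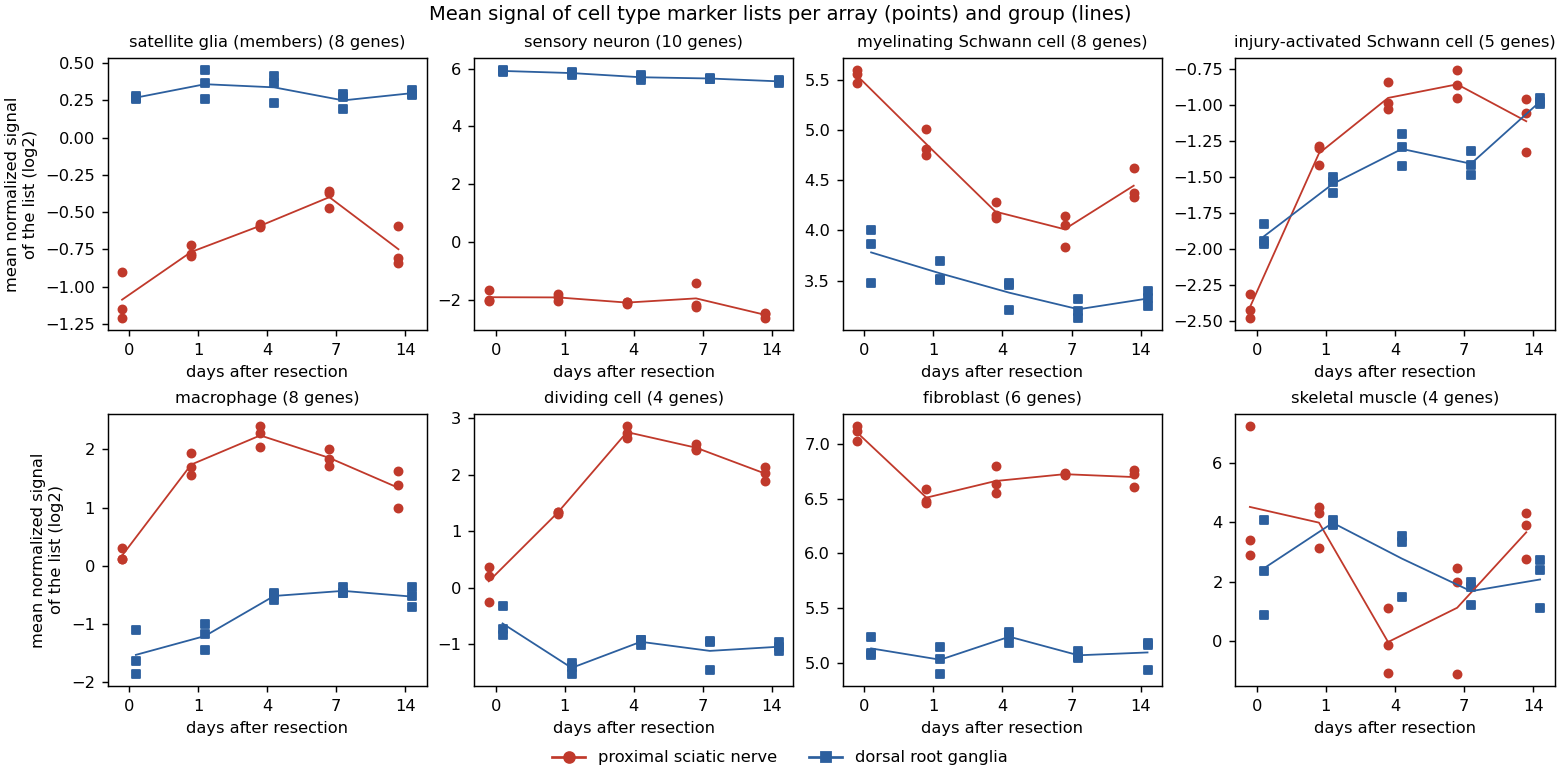
Mean normalized signal (log2, y axis) of the 8 member genes and of 7 lists of cell type markers by day (x axis); points are arrays and lines join group means, in SN (red circles) and DRG (blue squares). The members' mean stayed between 0.25 and 0.36 in DRG and went from -1.09 at 0 d to -0.40 at 7 d in SN, while macrophage and dividing cell lists rose and the myelinating Schwann cell list fell in SN. The SN mean takes in Fabp7 and Kcnj10, which were not well above background on any SN array at 0 d.

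As a last description, the 10 group means of each member were compared with those of 13834 other genes by Pearson correlation. The points share tissue, slide and scan, and no test was made. Fabp7 was matched most closely by Parp4 and Tmem59l (r = 0.998 each), Gja1 by Bri3bp (0.994), Glul by Enpep (0.992) and Slc1a3 by Erp29 (0.989). Kcnj10 was matched by Gfra3, a receptor subunit for artemin (0.981), Cdh19 by Psenen (0.964), S100b by Abcb1a (0.959) and Ednrb by Pcdha4 (0.951). Among the members themselves r ran from -0.916 between Kcnj10 and Glul to 0.847 between Glul and Gja1.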

How the data were processed

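RNA of 30 tissue samples, 3 from DRG and 3 from SN at each of 0, 1, 4, 7 and 14 d, was labelled with Cy3 and hybridised by the authors to one-colour Agilent rat arrays. The deposited scanner files hold intensity values per spot, written by Feature Extraction 10.5.1.1, and the authors also deposited a matrix of log2 values, used as an alternative. The processed intensity was averaged over the spots of a probe without flagged outliers, and log2 of it minus the 75th percentile of the array was used. Control spots were left out. In R 4.3.3, limma 3.58.1 was fitted to the 15 arrays of a tissue, or to all 30 for differences between tissues. A probe was tested where all 3 arrays of at least 1 day detected it well above background (35157 in SN, 34968 in DRG, 33796 in both), and p-values were adjusted by the Benjamini-Hochberg method over all of them. Calls needed an adjusted p below 0.05 and 2-fold. The script was tested on simulated data. The number of arrays limits the precision. No saturated spot was found, and each member had a value on every array.

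The 8 members and all lists were chosen with earlier results of these data known. Main comparisons were each later day against 0 d in a tissue, SN against DRG at 0 d, and the change in SN against that in DRG. Named genes were the members, by the probe with the higher mean signal, then called genes of lists of related genes, the largest changes included, and the genes most like each member by correlation over group means. Alternatives were quantile normalization, normexp background correction, the authors' log2 matrix, other filters, slide, scan and replicate blocks, leaving out each array, and the independent t test the methods name. Slide as a fixed block was added after seeing the data. The labels name a different RNA extraction kit from the methods. Exon and UTR annotation in rn4 was not used here. Some genes of the lists count in the totals but are not reported here by name.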

Additional observations from a re-analysis of the deposited data

Results flagged for a closer look

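For 5 of the 8 genes the change from 0 d in SN differed from the change in DRG of the same day beyond 2-fold, by the interaction term of limma over all 30 arrays. Values are the SN change minus the DRG change on the log2 scale. At 1 d they were 1.35 for Fabp7, 1.24 for Gja1 and -1.27 for Cdh19, the Fabp7 value being 0.43 with quantile normalization (adjusted p = 0.422) and 0.28 with the authors' deposited values (adjusted p = 0.567). At 4 d they were 3.34 for Fabp7, 1.08 for Gja1 and -1.60 for Cdh19. At 7 d they were 1.81 for Kcnj10, 2.51 for Fabp7, 1.15 for Gja1, 1.89 for Ednrb and -1.06 for Cdh19. At 14 d they were 2.27 for Kcnj10 and 2.47 for Ednrb. The Fabp7 and Kcnj10 values include SN arrays not well above background, so their sizes are those of measured signals and not folds above the floor. With normexp background correction each of these Fabp7 and Kcnj10 differences was below 2-fold. The Glul, Slc1a3 and S100b changes were not called different without a slide block, and S100b was called at 14 d with the slide as a random block (-1.09, adjusted p = 0.0389). With the slide as a fixed block, which rests at each day on 1 array of 1 of the tissues, the S100b values at 4, 7 and 14 d were -1.06, -1.29 and -1.77.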

How the results depend on the processing

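The counts of called members in DRG were 0 at each day under all alternatives. Normexp background correction with an offset of 50, which by construction compresses dim signals, left 1 called member in SN at 4 d where the main count was 3, ended the SN calls of Fabp7 at 1, 4 and 7 d (0.18, 0.91 and 0.41), of Cdh19 at 4 d (-0.95) and of Kcnj10 at 7 and 14 d (0.18 and 0.42) and that of Kcnj10 between the uninjured tissues (-0.43), added Gja1 in SN at 7 d (1.03), and left 2 and 1 called differences between the SN and DRG changes at 7 and 14 d where the main counts were 5 and 2. Under it the Fabp7 difference at 1 d was -0.34 (adjusted p = 0.144) in place of 1.35. A filter asking for a probe above background on every array removed Fabp7 and Kcnj10 from SN and left 1 called member in SN at 7 d and 1 between the uninjured tissues, each 3 before, and 3 and 1 between the changes at 7 and 14 d. Slide as a fixed block, chosen after seeing the data, rests at each day on 1 array of 1 of the tissues. Between the changes at 1 d it gave Fabp7 0.83 in place of 1.35 and Cdh19 -0.90 in place of -1.27. At 4 d it gave S100b -1.06 in place of 0.22. The cause was not tested. Leaving out 1 array gave 3 to 3 called members in SN at 1 and 4 d, 3 to 4 at 7 d and 2 to 3 at 14 d. Between the uninjured tissues it gave 2 to 4, and between the changes 3 to 3 at 1 d, 2 to 3 at 4 d, 3 to 5 at 7 d and 2 to 4 at 14 d. The lowest at 7 d came without uninjured SN replicate 3 and the highest at 14 d without 14 d SN replicate 2, when S100b (-1.19) and Cdh19 (-1.09) were called too. S100b was also called there without uninjured DRG replicate 2 (-1.08) or 3 (-1.14), and Cdh19 without uninjured DRG replicate 1 (-1.05) or uninjured SN replicate 1 (-1.02). Glul was called higher in uninjured SN without replicate 2 of that group (1.10). No pairing by replicate number was seen: deviations of SN and DRG arrays with the same number correlated at -0.194 to 0.253, over 0.1 in 4 of 15 pairs. Deviations of single arrays hold array noise, so low correlations cannot show whether the 2 tissues came from the same rats. The main fits treat them as unpaired. With the replicate block the member counts were 3 at each day in SN, 0 in DRG, 3 between the uninjured tissues, and 3, 3, 5 and 2 between the changes. The median change of all probes tested on a day was 0.08 to 0.16 with the main scaling and -0.08 to 0.03 with quantile normalization, so changes of this size depend on the scaling. Dim probes limit Fabp7 and Kcnj10 in SN, and 3 arrays a group limit the rest.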

Other observations

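Some genes of the injury-activated Schwann cell list were called higher in DRG. Gdnf, a glial growth factor, was higher there by 1.25 at 4 d and 1.30 at 14 d on the log2 scale, and Artn, which encodes artemin, by 1.28 at 14 d. Olig1 was higher in DRG by 1.23, 1.05 and 1.97 at 4, 7 and 14 d, with 1 of 3 arrays at 0 d well above background, and lower in SN by 1.32, 1.63, 1.36 and 1.56 at 1, 4, 7 and 14 d.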
